A study of Mus musculus with 12 samples.

Results

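The chemokine ligand genes were taken as the rows of the deposited gene table whose symbol begins with Ccl or Cxcl and a number, leaving out Cxcl12. The rule gave 43 of 34745 rows, with 38 different symbols, since Ccl21c and Ccl27a each had 3 rows and Ccl21a had 2. RNA of bone marrow cells from 12 male ICR mice, an outbred stock, was sequenced after removal of ribosomal RNA, and each of the 4 groups had 3 mice. Saline alone was given to the normal mice. The model group received cyclophosphamide, an alkylating cytotoxic drug that empties the marrow, at 80 mg/kg/day by intraperitoneal injection from day 5 to day 7, with saline by mouth. The QJSB mice had this cyclophosphamide course plus Qi-Jing-Sheng-Bai granule, a Chinese herbal preparation, at 3 g/kg/day by mouth from day 1 to day 7. The leucogen mice had it plus leucogen, a drug given for low white cell counts and the positive control, at 20 mg/kg/day by mouth over the same days. All 3 cyclophosphamide groups therefore had the same cyclophosphamide course, and QJSB and leucogen were begun before it. The marrow was whole and unsorted.

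Chemokines are small secreted proteins that direct cell movement along their gradients. They fall mainly into the CC class, with adjacent cysteines near the amino end, and the CXC class, with a residue between these cysteines. They act through G protein-coupled receptors on leukocytes and are bound without signalling by atypical receptors, which clear or present them. In marrow, myeloid cells are a main source of several CC ligands, while inflammatory ligands are induced through NF-kappaB and interferon signalling.

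The chemokine ligand transcripts of these marrows were almost entirely those of Ccl6 and Ccl9, neighbouring genes of chromosome 11, and both genes changed in opposite directions. Ccl9 was higher in all 9 libraries from mice given cyclophosphamide than in any normal library, and Ccl6 was lower in all 9. Ccl5, Ccl3, Ccl4 and Ccl22 were at low levels in normal marrow and lower in all 9 libraries of the treated mice. Ccl22 had only 3 counts in normal replicate 3, no more than a count of 0 allows. No chemokine ligand gene passed the adjusted test between QJSB and model. Ccl9 was lower under leucogen than in model, and Ccl25 and Cxcl10 were lower under QJSB than under leucogen.

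The promoter sequences of Ccl9 and Ccl6 are shown because these neighbours carried most of the signal and moved apart, those of Ccl3 and Cxcl10 because both genes changed. Each is the 250 bases before the RefSeq transcript start in build GRCm38.p6, 5′ to 3′ on the strand of the gene, and all 4 lie on the minus strand. Ccl9 is at chr11:83578637-83578886, Ccl6 at chr11:83593088-83593337, Ccl3 at chr11:83649379-83649628 and Cxcl10 at chr5:92348890-92349139. In Ccl9 and Ccl6, capitals mark runs of at least 8 bases that occur in both. In Cxcl10, capitals mark matches to the motifs described next.
Ccl9: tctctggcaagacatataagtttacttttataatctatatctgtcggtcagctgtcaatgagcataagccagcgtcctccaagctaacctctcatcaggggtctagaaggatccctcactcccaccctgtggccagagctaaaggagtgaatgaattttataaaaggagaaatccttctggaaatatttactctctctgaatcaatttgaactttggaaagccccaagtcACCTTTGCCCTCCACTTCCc
Ccl6: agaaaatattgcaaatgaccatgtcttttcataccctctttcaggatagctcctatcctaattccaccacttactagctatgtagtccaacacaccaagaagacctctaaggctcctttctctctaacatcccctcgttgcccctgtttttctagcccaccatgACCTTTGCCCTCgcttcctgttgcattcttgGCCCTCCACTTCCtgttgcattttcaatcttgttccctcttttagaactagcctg
Ccl3: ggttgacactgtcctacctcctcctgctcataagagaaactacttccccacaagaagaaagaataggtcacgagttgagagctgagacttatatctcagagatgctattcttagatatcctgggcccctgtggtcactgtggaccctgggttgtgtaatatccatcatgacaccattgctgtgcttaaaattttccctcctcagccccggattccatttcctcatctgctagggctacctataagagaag
Cxcl10: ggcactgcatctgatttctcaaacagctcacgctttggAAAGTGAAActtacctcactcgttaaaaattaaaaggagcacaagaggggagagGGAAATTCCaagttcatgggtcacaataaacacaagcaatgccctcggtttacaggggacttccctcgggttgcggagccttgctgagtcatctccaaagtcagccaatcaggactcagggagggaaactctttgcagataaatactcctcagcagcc

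Ccl9 and Ccl6 shared the run GCCCTCCACTTCC of 13 bases, which began at -14 in Ccl9 and at -55 in Ccl6 counted back from the start site. They also shared ACCTTTGCCCTC of 12 bases, which began at -20 in Ccl9 and at -86 in Ccl6. In Ccl9 the runs overlap and form 1 stretch next to the start, whereas in Ccl6 they lie apart. The NF-kappaB core GGNNTTTCC was searched on both strands and occurred in 1619 of 32851 promoters of this length, or 4.93%. It occurred in 7 of 30 promoters of 24 matched chemokine ligand genes, or 23.3%, which were those of Ccl9, Ccl20, Cxcl1, Cxcl2, Cxcl3, Cxcl9 and Cxcl10. The match of Cxcl10 was GGAAATTCC at -158, and that of Ccl9 was GGAAAGCCC at -35, next to the shared stretch. The interferon response core TTTCNNTTT, searched on both strands, occurred in 3079 promoters, or 9.37%, and in 5 of the 30, or 16.7%. These were Ccl19, Ccl27b, Ccl28, Cxcl14 and Cxcl10, whose match AAAGTGAAA began at -212. Neither motif matched in the Ccl3 or Ccl6 window. These matches describe letters and were not tested as binding sites.

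At least 1 count was found for 30 of the 43 genes in the 12 libraries, and more than 3 counts in at least 1 library for 22. The 13 genes with no count were Ccl19, Ccl20, Ccl26, Ccl27b, the 6 rows of Ccl21a, Ccl21b and Ccl21c, 1 of the 3 rows of Ccl27a, and the pseudogenes Ccl19-ps1 and Ccl19-ps3. Most of these are homeostatic ligands, known to guide lymphocytes and dendritic cells in lymphoid organs, skin and gut. Ccl21a, Ccl21c and Ccl27a have several rows, and how reads that match several copies were counted is not given in the sources used here. A count of 0 in such a row therefore need not mean absence. Another 8 genes stayed at or below 3 counts in every library. They were Ccl2, Ccl12 and Ccl11, the T cell attractants Ccl1 and Ccl17, the neutrophil attractants Cxcl3 and Cxcl15, and Cxcl17. A count of 0 allows up to 3 counts, which corresponded to 0.161 to 0.288 CPM (counts scaled to a common library size) over the 12 libraries. The number of genes with a count ran from 16 in QJSB replicate 3 to 23 in QJSB replicate 1. In all 3 libraries of a group, more than 3 counts were found for 12 genes in normal, 11 in model, 10 in QJSB and 10 in leucogen.

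**Figure D1:**
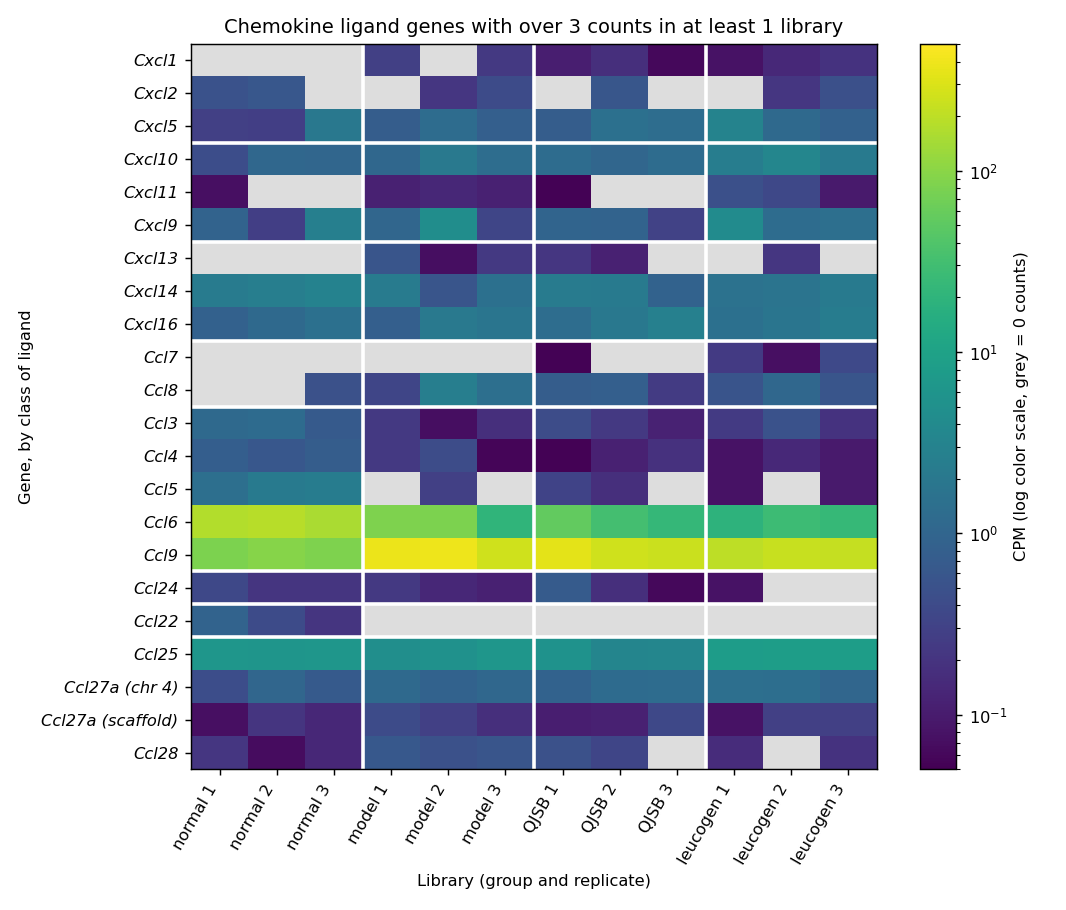
CPM (color, log scale, grey for 0 counts) of the 22 chemokine ligand genes with over 3 counts in at least 1 library, in 12 libraries grouped as normal, model, QJSB and leucogen, with genes grouped by class of ligand. Ccl6 and Ccl9 stand above all other genes in every library, and Ccl22 is at 0 counts in the 9 libraries from mice given cyclophosphamide.

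Library totals ran from 11172547 to 18545198 counts. Every gene of the marker lists for marrow lineages, such as promyelocyte and erythroid markers, had counts. The libraries from mice given cyclophosphamide were low in erythroid markers, with 8 of 8 lower in model than in normal. They were also low in B cell markers, with 8 of 8 lower. Among all genes tested in this comparison, 19% were lower. Ms4a1, Fcer2a and Cr2, at 0.0769, 0.0577 and 0.139 CPM in model, passed the filter on low counts through the normal libraries. The part of such B cell markers in the count therefore already rested on that difference. In these bulk samples, fewer cells of a type and less RNA per cell cannot be told apart. Model replicate 1 had the lowest summed late neutrophil markers of the model group at 2093 CPM, against 6445 and 5157, and QJSB replicate 1 stood apart from the other QJSB libraries at 3338 CPM, against 18510 and 12450.

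Ccl9 encodes a CC chemokine of myeloid cells that acts on Ccr1 and is also known from osteoclasts. Its level was 80.3, 93.5 and 84.5 CPM in the normal libraries and 376, 398 and 259 CPM in the model libraries. Under QJSB it was 344, 257 and 237 CPM, and under leucogen 198, 229 and 225 CPM. The lowest cyclophosphamide library was above the highest normal one by more than the range within the normal group. The level was 86.1 ± 6.73 CPM in normal and 344 ± 74.8 CPM in model (SD, n = 3), a log2 difference of 2.00 (SE 0.18, adjusted p = 8.9e-05 in edgeR's quasi-likelihood test, adjusted by Benjamini-Hochberg over all genes tested). QJSB and leucogen also lay above normal, by 1.71 (SE 0.17, adjusted p = 0.00019) and 1.36 (SE 0.09, adjusted p = 1.8e-06) on the log2 scale in the same test.

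Ccl6 encodes another myeloid CC chemokine that acts on Ccr1. Its level was 170, 185 and 156 CPM in normal and 85.7, 80.4 and 20.5 CPM in model. Under QJSB it was 53.9, 31.6 and 23.3 CPM, and under leucogen 19.2, 27.4 and 24.2 CPM. Normal overlapped with no other group, and model replicate 3 lay within the leucogen range, far below the other model libraries. The log2 difference between model and normal was -1.45 (SE 0.49), with an unadjusted p of 0.024 and an adjusted p of 0.055 in edgeR's quasi-likelihood test, so it was not called. Without model replicate 3 the difference was -1.03, and it was called with an adjusted p of 0.000829 in that test. The levels under QJSB and leucogen, 36.3 ± 15.8 and 23.6 ± 4.12 CPM, were lower than the 171 ± 14.5 CPM of normal (SD, n = 3). These log2 differences were -2.22 (SE 0.29, adjusted p = 0.00082) and -2.83 (SE 0.13, adjusted p = 1.5e-07) in edgeR's quasi-likelihood test. Ccl6 is overlapped along 5206 bases by E230016K23Rik on the opposite strand. The libraries kept strand, but no source used here says whether the counting did, so reads of the pair may be mixed.

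Per transcript length, the order of the genes changed between groups. In FPKM (fragments scaled by transcript length and library size), Ccl6 was above Ccl9 in normal marrow, at 65.8 ± 5.31 and 26.2 ± 2.08. In model marrow, Ccl9 was above Ccl6, at 115 ± 28.3 and 26.6 ± 16 FPKM. The ratio of Ccl6 counts to Ccl9 counts, which does not depend on library scaling, was 2.12, 1.98 and 1.85 in normal and 0.228, 0.202 and 0.0792 in model. It was 0.157, 0.123 and 0.0985 under QJSB and 0.0969, 0.120 and 0.107 under leucogen. Every cyclophosphamide library was below every normal one, by 12.9-fold in model, 16-fold under QJSB and 18.4-fold under leucogen as a ratio of geometric means. A two-sided exact permutation test of the log2 ratio gave p = 0.1 for each group against normal, the smallest that 3 against 3 mice can give. The same exact permutation test gave p = 0.6 for QJSB against model, p = 0.4 for leucogen against model and p = 0.4 for QJSB against leucogen, with overlapping groups in each.

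**Figure D2:**
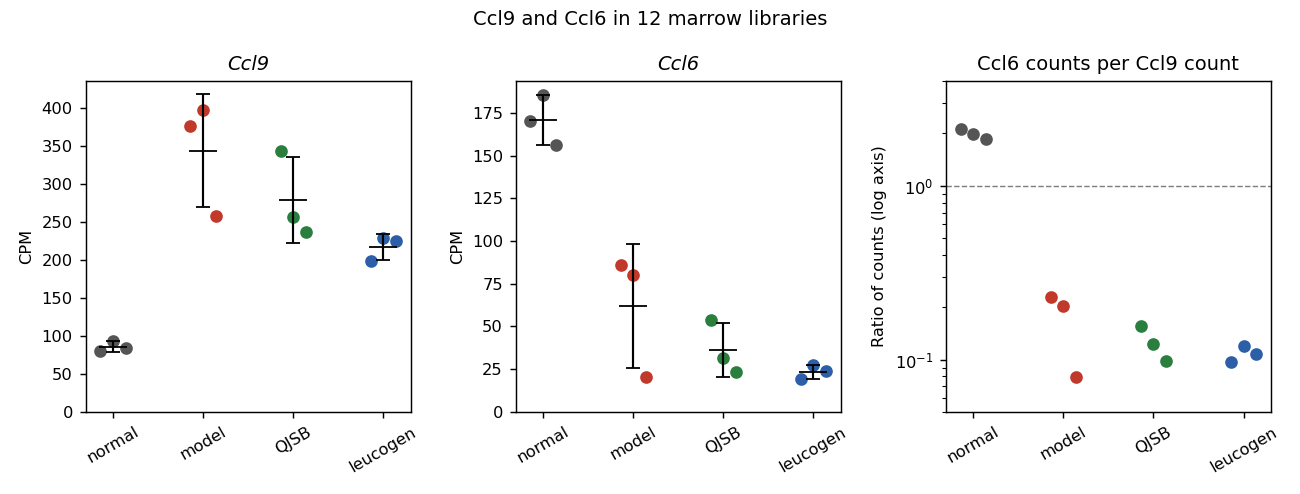
Ccl9 and Ccl6 in CPM by library (points) with mean and SD (bars, n = 3 mice), and the ratio of Ccl6 counts to Ccl9 counts by library on a log axis, with a dashed line at 1. Ccl9 is higher and Ccl6 lower in all cyclophosphamide libraries, and the ratio lies between 1.85 and 2.12 in normal and at or below 0.228 in all others.

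Ccl6 and Ccl9 together made up 89.8% to 96.8% of the counts of all chemokine ligand genes in each library, and the other genes summed to 203 to 329 counts per library. All chemokine ligand genes together took 0.0261% to 0.0291% of a normal library. They took 0.0537%, 0.0531% and 0.0303% of the model libraries, 0.0450%, 0.0283% and 0.0267% of the QJSB libraries and 0.0241% to 0.0260% of the leucogen libraries. By these unscaled totals, the lowest model share, 0.0303%, lay above the highest normal share, 0.0291%. The highest leucogen share, 0.0260%, lay just below the lowest normal share, 0.0261%. The scaling factors of leucogen replicates 2 and 3, 0.934 and 0.933, were lower than those of normal, 0.975 to 0.990. Those of model, 1.02 to 1.13, were higher, so these separations need not hold after scaling.

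Markers of several myeloid cell types also differed between the groups, in different orders. Of all genes tested between model and normal, 16.1% were higher and 19% lower in model. The summed monocyte markers were 1507 to 1625 CPM in normal, 3523 to 6662 in model, 3784 to 4514 under QJSB and 2245 to 2825 under leucogen, and 7 of 8 were higher and 1 lower in model than in normal. The summed promyelocyte markers were 769 to 961, 6690 to 9588, 8286 to 9093 and 3560 to 4631 CPM in the same order, and 6 of 6 were higher in model. The summed markers of tissue macrophages were 572 to 647, 249 to 417, 279 to 378 and 256 to 295 CPM, and 8 of 12 were lower in model. Eosinophil markers summed to 1544 to 1924, 75.2 to 193, 78.6 to 290 and 110 to 131 CPM, and 7 of 8 were lower in model. The late neutrophil markers summed to 10060 to 10640, 2093 to 6445, 3338 to 18510 and 14520 to 18550 CPM. QJSB and leucogen overlapped, and 4 of 10 markers were lower in model. No gene of these lists was at 0 in all libraries. Their part in the changes of Ccl6 and Ccl9 was not tested.

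Ccl5, Ccl9, Ccl6, Ccl3 and Ccl4 lie in this order along 138906 bases of chromosome 11. Ccl9 (chr11:83572919-83578636) and Ccl6 (chr11:83587882-83593087) are 9245 bases apart and both on the minus strand. Ccl5 (chr11:83525778-83530518, minus strand) is 42400 bases from Ccl9, Ccl3 (chr11:83647844-83649355, minus strand) is 54756 bases from Ccl6, and Ccl4 is 13228 bases beyond Ccl3 on the plus strand. Ccl9 was the gene of these 5 whose mean was higher in every cyclophosphamide group than in normal. The other genes of the cluster had lower means in every cyclophosphamide group.

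**Figure D3:**
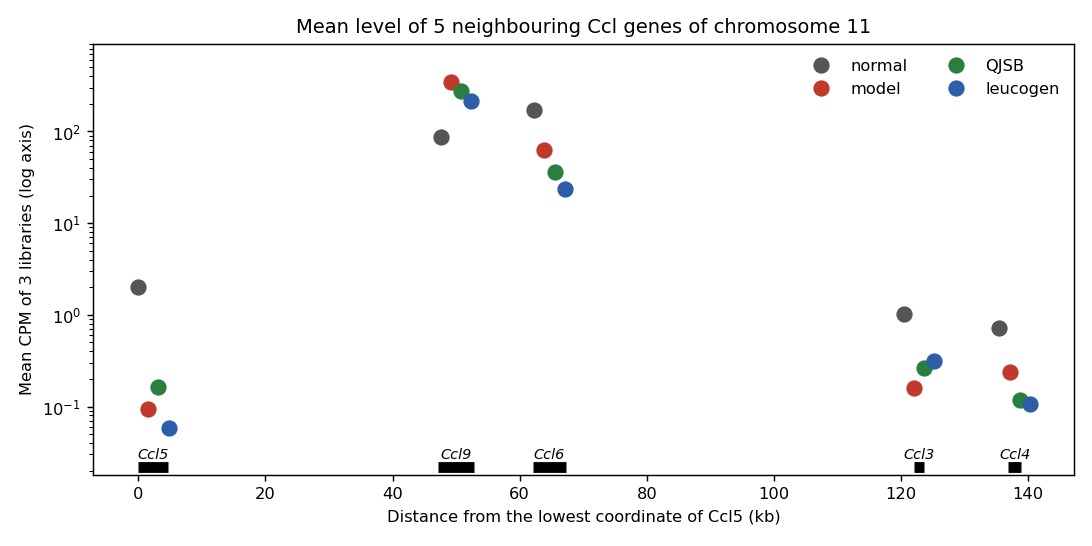
Mean CPM of 3 libraries (log axis) in each group for 5 Ccl genes against distance in kb from the lowest coordinate of Ccl5, with black bars for the genes and points set side by side around each gene. Ccl9 is lowest in normal, while Ccl5, Ccl6, Ccl3 and Ccl4 are highest in normal.

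Ccl5, known from activated T cells and natural killer cells, had 20, 31 and 35 counts in the normal libraries. It had 0, 4 and 0 counts in model, 6, 3 and 0 under QJSB, and 1, 0 and 1 under leucogen. No treated library reached the lowest normal one. The level was 2.00 ± 0.495 CPM in normal and 0.0945 ± 0.164 CPM in model (SD, n = 3). Scaled for library size, the summed counts of normal were 24.4 times those of model, with a 95% exact Clopper-Pearson interval of 9.21 to 91.7 that covers counting error only. The same ratio was 11.7 (5.86 to 26.4) against QJSB and 36.9 (9.91 to 310) against leucogen. The fitted log2 differences from normal were -4.44 (SE 0.86, adjusted p = 0.0034) in model, -3.48 (SE 0.68, adjusted p = 0.0046) under QJSB and -4.95 (SE 0.66, adjusted p = 0.00012) under leucogen in edgeR's quasi-likelihood test. Of the T and natural killer cell markers, 8 of 9 were lower and 1, Nkg7, was higher in model than in normal. Among all genes tested there, 19% were lower and 16.1% higher. Cd3e, Cd3g and Cd8a passed the filter on low counts through the normal libraries, where they were higher. Their part in this count therefore already rested on that difference. The sum of the 9 markers was 74.6 to 90.4 CPM in normal, 104 to 127 in model, 106 to 150 under QJSB and 64.4 to 87.9 under leucogen. Nkg7 contributed most to it outside normal marrow. The part of these markers in the change of Ccl5 was not tested.

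Ccl3 and Ccl4 are macrophage inflammatory proteins, and Ccl3 acts on Ccr1. Ccl3 had 16, 18 and 10 counts in normal, 4, 1 and 3 in model, 8, 4 and 2 under QJSB, and 3, 7 and 2 under leucogen. Every treated library was below every normal library. Its level was 1.03 ± 0.295 CPM in normal and 0.158 ± 0.081 CPM in model (SD, n = 3). Its log2 difference was -2.60 (SE 0.55, adjusted p = 0.0053) between model and normal and -1.91 (SE 0.54, adjusted p = 0.021) between QJSB and normal in edgeR's quasi-likelihood test. The QJSB call was lost without normal replicate 1 (adjusted p = 0.0745), normal replicate 2 (0.0826), QJSB replicate 2 (0.0615) or QJSB replicate 3 (0.0595) in that test. Ccl3 and Ccl5 passed the filter on low counts through the normal libraries, where they were higher, so their entry into the test already rested on that difference. Ccl4 had 11, 9 and 11 counts in normal, 4, 6 and 1 in model, 1, 2 and 3 under QJSB and 1, 2 and 1 under leucogen, and was too low for the test. The ratio of its summed counts in normal to those of model was 3.20 (1.57 to 7.06), with the same kind of interval.

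Ccl22, a ligand of Ccr4 made by dendritic cells and macrophages, had 13, 6 and 3 counts in the normal libraries and 0 in all 9 others. With 3 counts set for each library at 0, its mean level was at least 2.79-fold lower in model, 3.02-fold lower under QJSB and 2.1-fold lower under leucogen. These bounds leave out the counting error of the normal libraries, and the third normal library was itself at 3 counts. Ccl8, which attracts monocytes, went the other way, with 0, 0 and 7 counts in normal and 6, 36 and 25 in model. It had 14, 14 and 4 counts under QJSB and 7, 15 and 6 under leucogen, so that model and normal overlapped. Cxcl13, the ligand of Cxcr5 that guides B cells, had 0 counts in the 3 normal libraries and 10, 1 and 4 in model. Under QJSB it had 4, 2 and 0 counts and under leucogen 0, 3 and 0, which overlapped with normal. Ccl28, a mucosal ligand, had 3, 1 and 2 counts in normal and 11, 7 and 10 in model, which did not overlap. It had 9, 6 and 0 counts under QJSB and 2, 0 and 2 under leucogen. Cxcl13 and Ccl28 were too low for a test in these groups, as were the neutrophil attractants Cxcl1 and Cxcl2, which had at most 5 and 10 counts in any library.

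Of the 43 genes, 11 passed the filter on low counts for model against normal, and 12 did so in at least 1 comparison. A gene was called when it changed by more than 1.5-fold with an adjusted p under 0.05. Between model and normal, 3 of the 11 tested genes were called, 1 higher (Ccl9) and 2 lower (Ccl5 and Ccl3). This share was 27.3%, beside 35.1% of all 14752 genes tested, of which 16.1% were higher and 19% lower in model. Ccl5 and Ccl3 passed the filter on low counts through the normal libraries, where they were higher. Their part in this share therefore already rested on that difference. The median log2 difference was 0.13 over the 11 genes and 0.02 over all genes tested. The remaining genes had values of -0.81 for Cxcl14, 0.38 for Cxcl16, 0.13 for Cxcl5, 0.58 for Cxcl9, 0.56 for the chromosome 4 row of Ccl27a, 0.79 for Cxcl10 and -0.19 for Ccl25, and none was called. Another row of Ccl27a, on an unplaced scaffold, had 1 to 7 counts in each library, and near-identical copies of this gene may have shared reads.

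The counts behind these genes were low and spread widely within groups. Cxcl14, a CXC ligand of epithelial and stromal cells, had 32 to 43 counts in normal, 8 to 40 in model, 15 to 43 under QJSB and 20 to 24 under leucogen. Cxcl16, a membrane-bound ligand of Cxcr6, had 12 to 22, 14 to 31, 25 to 45 and 19 to 25 counts in the same order. Cxcl5, which attracts neutrophils, had 4 to 29, 13 to 18, 14 to 26 and 9 to 39 counts. In CPM, Cxcl14 was 2.32 to 2.96 in normal and at most 2.31 in the treated libraries. Every treated library thus lay below normal, by a narrow margin, and no comparison called Cxcl14. Cxcl16 overlapped in CPM between the groups of each of the 6 comparisons. It is overlapped along 552 bases by Zmynd15 on the opposite strand, whose reads its counts may hold. Ccl24, which attracts eosinophils, had 3 to 5 counts in normal, 2 to 4 in model, 1 to 13 under QJSB and 0 to 1 under leucogen. Ccl7, which attracts monocytes, had no count in normal or model, 1 count in 1 QJSB library and 1 to 4 counts under leucogen.

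Against normal, QJSB had 4 of 11 tested genes called, or 36.4%, beside 37.9% of all 14817 genes tested. They were Ccl9, which was higher, and Ccl6, Ccl5 and Ccl3, which were lower. Leucogen had 4 of 10 called, or 40%, beside 37.7% of all 14637 genes tested, with Ccl9 and Cxcl10 higher and Ccl6 and Ccl5 lower. Ccl5 in both comparisons, and Ccl3 in that of QJSB, again passed the filter on low counts through the normal libraries. Both comparisons used the same normal libraries as that of model.

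The comparison of QJSB with model addresses the effect of the granule in mice given cyclophosphamide. There, edgeR's quasi-likelihood test called 0 of 10 genes with adjusted p-values and 0 at an unadjusted p under 0.05. Over all 14486 genes tested, it called 0% with adjusted and 3.08% with unadjusted p-values. DESeq2 and limma also called none of the chemokine ligand genes, whether adjusted or not. The smallest unadjusted p was 0.12, for Ccl8 at a log2 difference of -1.25. Ccl9 differed by -0.32 (SE 0.22, adjusted p = 0.77) and Ccl6 by -0.79 (SE 0.54, adjusted p = 0.77) in the edgeR test, and both overlapped between the groups. With the replicate number as a block, Ccl6 differed by -0.64 with an unadjusted p of 0.0426 and an adjusted p of 0.491 in edgeR. At the unadjusted cutoff, leaving out model replicate 3 gave 2 genes, Ccl6 (-1.21, adjusted p = 0.469 in edgeR) and Cxcl9, and leaving out model replicate 1 gave 1 gene, Ccl8. The median was -0.32 over the 10 genes and -0.02 over all genes tested.

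Between leucogen and model, 1 of 10 tested genes was called, or 10%, beside 23.1% of all 14184 genes tested, of which 11.6% were higher and 11.5% lower under leucogen. The called gene was Ccl9, at 217 ± 16.7 CPM against 344 ± 74.8 CPM (SD, n = 3), with no overlap and a log2 difference of -0.66 (SE 0.18, adjusted p = 0.027 in edgeR's quasi-likelihood test). This call was lost when any of 5 libraries was left out, with adjusted p-values in that test of 0.0715 without model replicate 1, 0.0575 without model replicate 2 and 0.102, 0.063 and 0.0883 without leucogen replicates 1, 2 and 3. Ccl6 differed by -1.39 (SE 0.52, adjusted p = 0.093) in the edgeR test and was not called, and without model replicate 3 it was called at -1.78 with an adjusted p of 0.00303. Of the monocyte markers 4 of 8, and of the promyelocyte markers 4 of 6, were lower under leucogen than in model, and 7 of 10 late neutrophil markers were higher. Their part in the result was not tested. QJSB and leucogen were compared with the same model libraries.

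**Figure D4:**
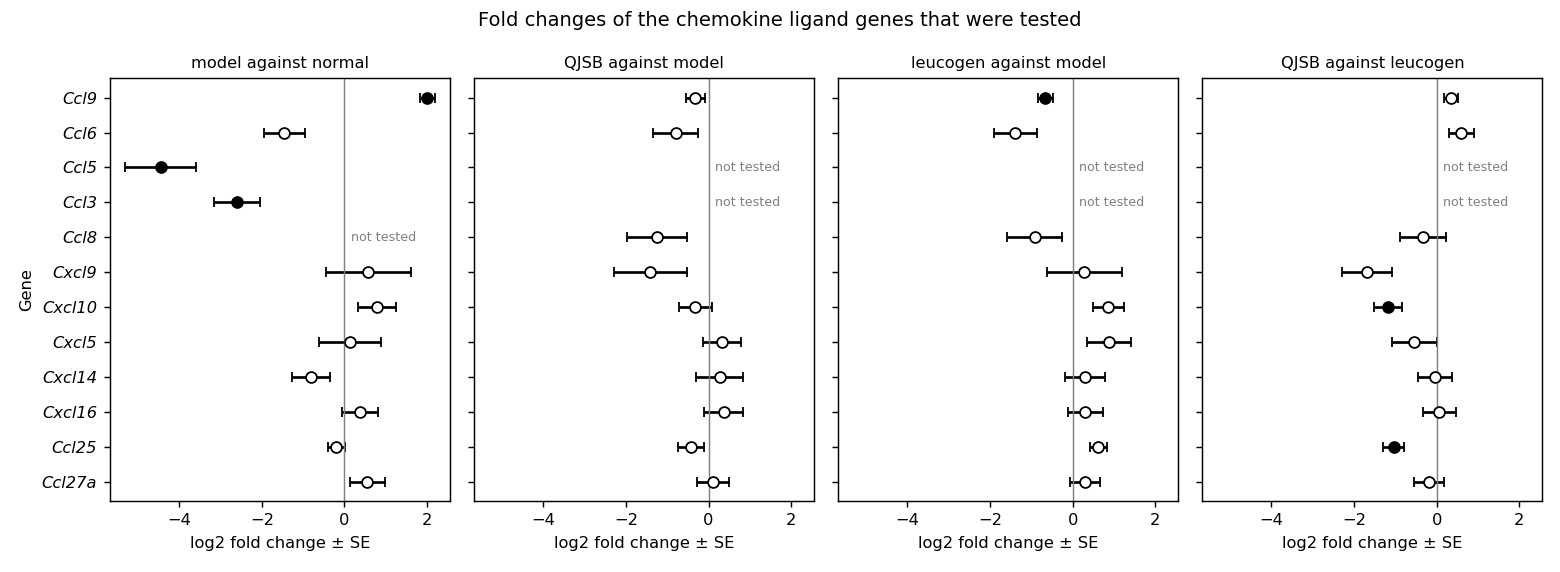
Log2 fold change with SE from edgeR's quasi-likelihood fit for the 12 chemokine ligand genes tested in at least 1 comparison, in 4 comparisons, with filled points for called genes. Ccl9, Ccl5 and Ccl3 are filled for model against normal, none for QJSB against model, Ccl9 for leucogen against model, and Cxcl10 and Ccl25 for QJSB against leucogen.

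Compared directly, 2 of 10 genes were called between QJSB and leucogen, or 20%, beside 24.6% of all 14266 genes tested. Ccl25 is the ligand of Ccr9 and best known from thymus and gut. Its level was 5.47, 3.36 and 3.41 CPM under QJSB and 8.10, 8.41 and 8.44 CPM under leucogen, beside 4.79, 5.24 and 6.23 in model and 6.37, 6.03 and 6.27 in normal. The leucogen libraries were the highest of all 12. The log2 difference between QJSB and leucogen was -1.05 (SE 0.26, adjusted p = 0.018 in edgeR's quasi-likelihood test), and that between leucogen and model was 0.62 (SE 0.21, adjusted p = 0.058 in the same test). The call between QJSB and leucogen was lost without QJSB replicate 2 (adjusted p = 0.0583), QJSB replicate 3 (0.0545) or leucogen replicate 1 (0.0583), 2 (0.0531) or 3 (0.0784) in that test, with log2 differences of -0.90 to -1.07. Ccl25 (chr8:4325210-4360020) overlaps Elavl1 on the opposite strand by 204 bases.

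Cxcl10 is an interferon-inducible ligand of Cxcr3. Its level was 0.434, 1.10 and 1.03 CPM in normal, 1.10, 2.06 and 1.33 in model, 1.29, 1.04 and 1.28 under QJSB and 2.46, 3.41 and 2.21 under leucogen. The leucogen libraries were again the highest, and model and QJSB overlapped. QJSB lay below leucogen by a log2 difference of -1.18 (SE 0.34, adjusted p = 0.030), and leucogen above normal by 1.66 (SE 0.39, adjusted p = 0.0051), in edgeR's quasi-likelihood test. With the replicate number as a block, the QJSB and leucogen difference was -1.17 and no longer called (adjusted p = 0.0517), and Cxcl9 was called in place of Cxcl10. The call was also lost without QJSB replicate 2 (adjusted p = 0.0808), QJSB replicate 3 (0.0629) or leucogen replicate 1 (0.0718), 2 (0.113) or 3 (0.0704) in the edgeR test. Cxcl10 lies wholly within the span of Art3 on the opposite strand, 2252 bases. Of its class, Cxcl9 had 4 to 39 counts in normal, 6 to 64 in model, 5 to 18 under QJSB and 15 to 54 under leucogen, and Cxcl11 had at most 6 counts in any library.

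**Figure D5:**
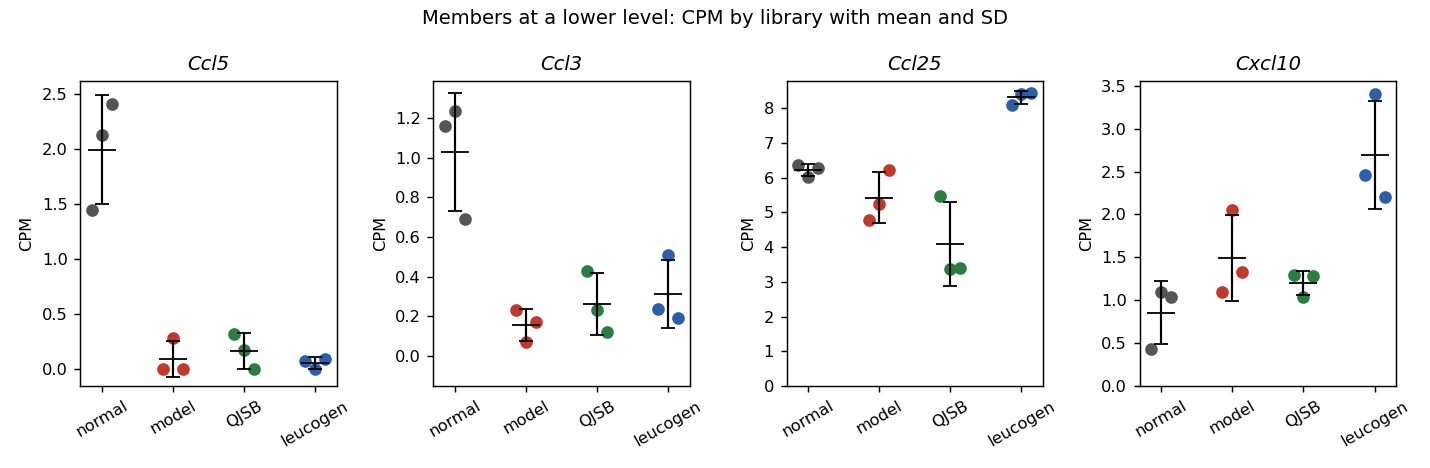
CPM by library (points) with mean and SD (bars, n = 3 mice) for Ccl5, Ccl3, Ccl25 and Cxcl10 in the 4 groups. Ccl5 and Ccl3 are highest in the 3 normal libraries, and Ccl25 and Cxcl10 in the 3 leucogen libraries.

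Of 19 chemokine receptor genes, 14 were tested between model and normal, and 8 were lower and 1, Ccr2, was higher. The median log2 difference over the 14 was -1.63. Of the lower ones, Ccr6, Ccr7, Cxcr5 and Cxcr6 passed the filter on low counts through the normal libraries, where they were higher. Their part in this count and median therefore already rested on that difference. Among all genes tested in this comparison 19% were lower and 16.1% higher, with a median of 0.02. Cxcr5, the receptor of Cxcl13 on B cells, went from 17.1 ± 3.25 to 0.325 ± 0.234 CPM (log2 difference -5.67, adjusted p = 3.7e-05 in edgeR's quasi-likelihood test). Ccr3, the receptor of eosinophils, went from 45.1 ± 4.04 to 1.40 ± 0.588 CPM (-4.98, adjusted p = 1e-05 in that test). Ccr6 and Ccr7, which bind Ccl20 and the Ccl19 and Ccl21 ligands that had no count, had log2 differences of -4.18 and -3.95. Ccr1, the receptor for Ccl6 and Ccl9, was 310 ± 41.3 CPM in normal, 184 ± 67.1 in model, 203 ± 86.1 under QJSB and 443 ± 20.5 under leucogen (SD, n = 3). Its log2 difference was -0.75 (adjusted p = 0.040) between model and normal and 1.27 (adjusted p = 0.0070) between leucogen and model in edgeR's quasi-likelihood test. Ccr1 was the 1 receptor called between leucogen and model, of 10 tested, beside 23.1% of all genes, and QJSB against model gave 0 of 11.

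Ackr1, the atypical receptor that binds many CC and CXC ligands and is found on erythroid cells, went from 22.1 ± 2.27 CPM in normal to 0.841 ± 0.375 CPM in model (SD, n = 3). Its log2 difference was -4.70 (adjusted p = 2.3e-05 in edgeR's quasi-likelihood test), and 1 of the 2 atypical receptors tested, of 4, was called. The platelet chemokine genes Pf4 and Ppbp, which bear other names and so lie outside the rule, were tested and not called, at 0.11 and -0.05. Of 16 genes for inflammatory cytokines and NF-kappaB feedback, 12 were tested between model and normal and 6 were lower, beside 19% of all genes tested. Il6, 1 of the lower ones, passed the filter on low counts through the normal libraries. Il1b went from 32.3 ± 10.0 to 1.06 ± 0.491 CPM in model (-4.94, adjusted p = 4.9e-05 in the edgeR test). Tnfaip3 went from 48.3 ± 2.44 to 16.2 ± 4.31 CPM (-1.57, adjusted p = 0.00059 in that test). Relb went from 10.4 ± 2.34 to 4.08 ± 0.499 CPM (-1.34, adjusted p = 0.0023 in that test). Between leucogen and model, Tnf and Nfkbiz, 2 of 11 tested, rose by 1.40 (adjusted p = 0.0082) and 1.32 (adjusted p = 0.0018) on the log2 scale in that test. Higher levels under leucogen were called for 11.6% of all genes tested, and QJSB against model gave 0 of 11.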

How the data were processed

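RNA was sequenced from marrow of 12 mice, 3 in each of 4 groups. Libraries were strand-specific and depleted of ribosomal RNA. Per the study's methods, reads were cleaned (Seqtk) and aligned to mouse GRCm38 (HISAT2). The authors deposited 1 table of 34745 genes with whole counts per gene and FPKM (fragments scaled by transcript length and library total), and the strand setting of the counting is not given in the sources used here. The table heads its columns Blank, Model, Stilbene and Positive. Blank and Positive were read as normal and leucogen by meaning and Stilbene as QJSB by elimination. For each comparison, the study lists means of normalized counts over the libraries of both groups together. They were within 1% of those of these columns for 298 of 298, 297 of 297 and 300 of 300 genes. Any other pairing of groups matched at most 10. No column was left unused (0).

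Counts were scaled by the trimmed mean of M-values and tested in edgeR 4.0.16 (R 4.3.3) with the quasi-likelihood test, 2 groups at a time, after the default filter on low counts, with Benjamini-Hochberg adjustment over all genes tested. CPM were computed from the same scaled totals. A gene was called at a fold change over 1.5, taken from the study, and an adjusted p under 0.05. Alternatives were DESeq2 1.42.0, its size factors, total counts, no filter, a minimum of 10 counts per library, 1 fit to all 12 libraries, a replicate block, limma 3.58.1 on log2(FPKM + 0.1) and log2(FPKM + 1) where the mean FPKM reached 0.1, and leaving out each library. The tests were tested on simulated counts. Totals of 11172547 to 18545198 counts set the precision, and intervals and floors (3 counts) cover counting error only.

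Replicate numbers came from the labels, which do not tie them to a litter, batch or day. After subtraction of group means, libraries of the same number correlated by 0.107 to 0.463 for QJSB with model and by 0.108 to 0.194 for QJSB with leucogen, so the numbers were taken as pairs there, from these correlations alone. Some libraries of different number correlated more: QJSB 2 with model 3 by 0.166, against 0.149 with model 2, and QJSB 3 with model 2 by 0.200, against 0.107 with model 3. For the other comparisons at least 1 correlation was below 0.1.

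Genes with a mean of at least 5 CPM in any group or called in any comparison are given in every library. From the other gene lists, up to 4 genes called with the largest changes and at least 5 CPM are named. Ccl4, Ccl22, Ccl8, Cxcl13, Ccl28, Nkg7, Pf4 and Ppbp were named after their values were seen. Ccr1, Ccr2, Cxcr6, Il6 and Nfkbiz were also named outside this rule. So were Ms4a1, Fcer2a, Cr2, Cd3e, Cd3g and Cd8a, as examples for the filter on low counts. The chemokine ligand genes and all lists were chosen with earlier results of these data known. Promoters and coordinates are those of RefSeq (GRCm38.p6) and of the table.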

Additional observations from a re-analysis of the deposited data

Results flagged for a closer look

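Cxcl10 and Ccl25 were called in the direct comparison of QJSB with leucogen. They were 2 of 10 tested genes, or 20%, beside 24.6% of all genes tested. Neither gene was called for either drug against the shared model libraries. Both calls were lost when any leucogen library, or QJSB replicate 2 or 3, was left out. For Cxcl10 the log2 difference of QJSB from leucogen was -1.18 (SE 0.34, adjusted p = 0.030 in edgeR's quasi-likelihood test), with 3 of 3 QJSB libraries below 3 of 3 leucogen libraries. For Ccl25 it was -1.05 (SE 0.26, adjusted p = 0.018 in the same test), again with 3 of 3 below 3 of 3. The adjusted p ran from 0.0181 to 0.113 for Cxcl10 and from 0.00295 to 0.0784 for Ccl25 over the alternatives. No group had more than 3 mice, so single libraries were not tested as outliers.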

How the results depend on the processing

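No chemokine ligand gene with values in every library changed direction. Over 29 pairs of such a gene and a comparison and 427 alternative values, 393 kept direction and side of the threshold, 24 fell below it and 10 rose past it. The number of genes called between model and normal, 3, became 6 with DESeq2, 5 without a filter, 1 with at least 10 counts in every library, 5 with all 12 libraries in 1 fit, 7 on log2(FPKM + 0.1) and 6 on log2(FPKM + 1). Leucogen against model, 1, became 2 with DESeq2, with all 12 libraries and on log2(FPKM + 0.1). QJSB against leucogen, 2, became 1 on log2(FPKM + 0.1) and 0 on log2(FPKM + 1). QJSB against normal, 4, became 2 with at least 10 counts. Leucogen against normal, 4, became 8 without a filter, 2 with at least 10 counts and 9 on log2(FPKM + 0.1). Settings with other filters test other numbers of genes. The cause of the other moves was not tested.

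Leaving out 1 library gave 3 to 4 genes for model against normal, 0 to 3 for leucogen against model, 0 to 2 for QJSB against leucogen, 4 to 7 for QJSB against normal and 4 to 6 for leucogen against normal. For leucogen against model, 3 were called without model replicate 3, and 0 without model replicate 1 or 2 or any leucogen library. For QJSB against leucogen, 0 were called without QJSB replicate 2 or 3 or any leucogen library. For QJSB against normal, 7 were called without normal replicate 3. QJSB against model gave 0 with adjusted p-values throughout, and 0 to 2 at the unadjusted cutoff. With the replicate block, where the numbers were taken as pairs, that count at the unadjusted cutoff became 1 (Ccl6). Cxcl10 lost its call between QJSB and leucogen with the block, and the count there stayed at 2. The block moved no other count of called genes.

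Scaling by total counts shifted the median log2 difference of all genes from 0.02 to 0.14 for model against normal and from -0.05 to -0.22 for leucogen against model. Genes with more than 3 counts numbered 22, against 30 with at least 1. For the remaining 21 of 43 genes, with at most 3 counts in any library, no difference was detectable at this depth. For symbols with several rows, a count of 0 may also come from the handling of reads that match several copies.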
